A study of Melitaea cinxia with 174 samples.

Results

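The 150 genes described here are those with the strongest male excess of expression that held in every population of the Glanville fritillary butterfly studied. For each of the 6134 gene models, of 16667 in all, with a mean log2(normalized count + 1) of at least 2 over 174 individuals, the mean of the females was subtracted from the mean of the males in each of 4 populations. The smallest of these 4 differences was taken, and the 150 genes with the largest values were kept. Because the difference between the sexes chose the genes, it is given below as a description without a test. Differences between populations, averaged over the sexes, were not used in the choice and were tested.

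RNA from the thorax of single adults was sequenced, with 1 library per butterfly. The Åland Islands (ÅL; 23 females and 26 males) and Uppland (UP; 11 females and 9 males) are fragmented landscapes, and Saaremaa (SA; 28 females and 35 males) and Öland (ÖL; 15 females and 27 males) are continuous ones. All individuals were wild larvae collected in diapause, overwintered in a growth chamber, reared singly on the host plant Plantago lanceolata in a common garden, and kept for 3 days as adults. The samples are separate individuals, and per the methods of the study each came from another family.

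In butterflies and moths males carry a pair of Z chromosomes and females a Z and a W, and the sexes share nearly all other genes, so that most differences between them arise from how strongly common genes are expressed. The thorax is filled with flight muscle, one of the most actively respiring animal tissues, in which mitochondria are packed between the contractile fibres. ATP synthase and the respiratory complexes make the ATP that the muscle uses. A library of a whole thorax also holds RNA of cuticle, fat body, tracheae, nerves and blood cells. In such bulk samples more cells of a type and more RNA per cell cannot be told apart.

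Total counts per library ranged from 442717 to 7742394 with a median of 2677838, and the group medians were 2011096 to 3585042 in females and 1847780 to 3476522 in males. A level counts reads per gene model and is not divided by length, so comparisons of levels between genes below are comparisons of reads. The median sum of normalized counts per library was higher in males than in females in ÅL (1155140 and 979949), SA (948194 and 773192) and ÖL (1070888 and 930208) but not in UP (974146 and 987330); its part in the differences between the sexes was not tested. The 4 marker genes of flight muscle (troponin C, myosin and a muscle protein) were well expressed (mean log2 level 7.16 to 10.46), and none was higher in males in all populations. Troponin C isoform 1 (MCINX015570) was lower in males in all of them (-0.61 to -0.19). Of 6 markers of testis and sperm, 4 had a mean log2 level below 1, and none was higher in males in all populations. A testis-specific kinase among them (MCINX005787, mean log2 level 0.31) was lower in males in all populations. The 4 hexamerins of the fat body had mean log2 levels of 0.48 to 1.36, and the 2 chorion peroxidases of the ovary 0.80 and 1.54, again with no consistent male excess. Of the hexamerins, 2 were higher in females in all populations, MCINX010010 by log2 differences of -1.22 in ÅL and -1.20 in UP, and -0.28 in SA and -0.63 in ÖL. The median summed normalized count of the 4 was 1.73 to 9.67 in females and 1.07 to 6.70 in males, and higher in females in each population; its part in the differences between the sexes was not tested. None of these markers was among the 150 genes.

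The expression of 3 individuals did not follow their labels. They lay nearer to the other sex than to their own, both in the 150 genes and in the 150 genes most consistently higher in females. These were ÅL male 14, ÖL male 11 and SA female 6. Of the 150 genes, ÅL male 14 was nearer to the mean of the ÅL females in 100 genes, ÖL male 11 to that of the ÖL females in 123, and SA female 6 to that of the SA males in 134. All were kept under their labels, and results are also given for the other 171 individuals. Apart from these, the study doubted the population labels of a few individuals of ÖL and UP from their genotypes and left them out of later steps. They cannot be told from the labels used here and were kept, so the comparisons of populations below include them. On the 150 genes alone, 9 individuals were nearer to the other sex.

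The genes together took a much larger part of the library in males. In ÅL they made up 10.4 to 22.5% of the counts of females (median 13.3%) and 11.8 to 28.1% of those of males (median 23.3%). In UP the range was 9.94 to 16.2% in females (median 13.2%) and 14.3 to 26.8% in males (median 20.4%). The shares were lowest in SA, at 7.69 to 17.5% in females (median 10.2%) and 13.9 to 21.2% in males (median 17.97%). In ÖL they were 8.47 to 14.1% in females (median 11.8%) and 11.1 to 26.9% in males (median 20.9%). The ranges of the sexes overlapped in every population. The mean share of the males was 1.62 times that of the females in ÅL and 1.55 times in UP, and 1.73 times in SA and 1.74 times in ÖL. Without the 3 individuals these ratios were 1.66, 1.55, 1.77 and 1.77. The sexes then no longer overlapped in SA (highest female 13.3%, lowest male 13.9%) or in ÖL (14.1% and 17.8%). The 3 individuals had been picked by their levels in the same genes, so the separation without them is in part set by that choice. These shares are taken from the raw counts within each library and do not depend on how libraries were scaled.

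**Figure D1:**
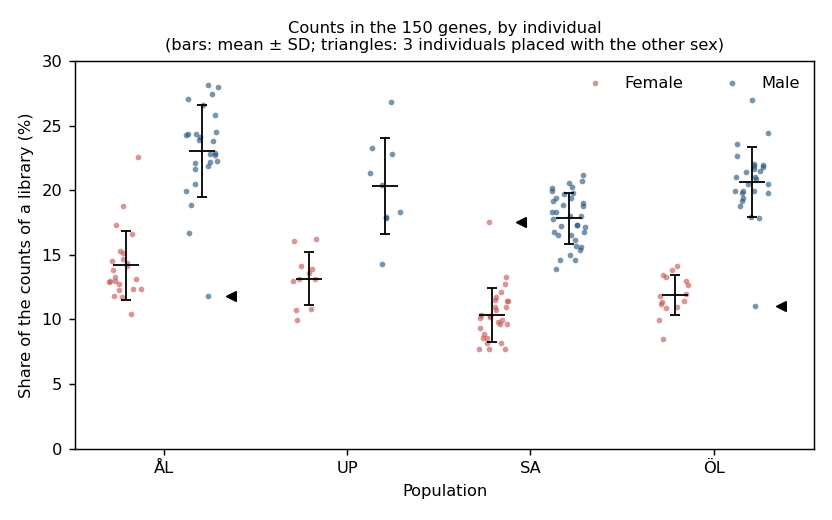
Share of the counts of each library that fell in the 150 genes (y axis, %) for females and males of the 4 populations (x axis); points are individuals, bars the mean ± SD of a group, and triangles mark the 3 individuals placed with the other sex. Group medians are 10.2 to 13.3% in females and 17.97 to 23.3% in males, and 2 of the 3 marked individuals are the lowest males of ÅL and ÖL.

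In the median gene of the 150, the male mean exceeded the female mean by 0.76 in ÅL and 0.67 in UP, and 0.95 in SA and 0.97 in ÖL on the log2 scale. Over all 6134 genes these medians were -0.09, -0.02, -0.07 and -0.05, and 880 genes, or 14.3%, were higher in males in all 4 populations by any amount. The smallest difference, which set the place of a gene, ran from 1.41 in MCINX015264 down to 0.41, and only 10 genes had a difference of 1 or more, a doubling, in every population. The smallest difference was found in UP for 80 genes, in ÅL for 39, in SA for 20 and in ÖL for 11. The largest was found in ÖL for 63 genes and in SA for 56, but in ÅL for only 20 and in UP for 11. UP had the fewest individuals, and whether this order of populations reflects more than sampling was not tested. The last genes admitted were MCINX001897, MCINX000928 and MCINX011651, with smallest differences of 0.413, 0.413 and 0.411. The first left out were MCINX000473, MCINX016655 and MCINX004469, at 0.410, 0.409 and 0.405, so that no gap separated the 150 genes from the next ones.

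**Figure D2:**
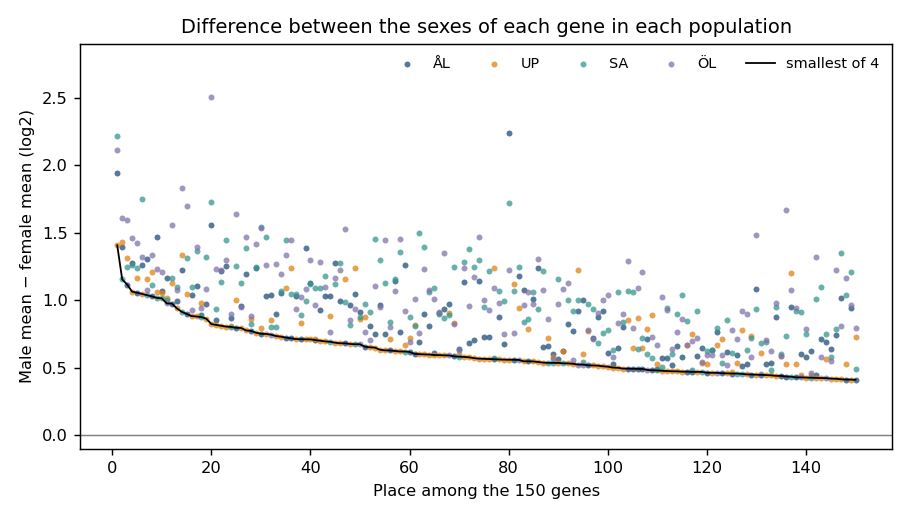
Male mean minus female mean on the log2 scale (y axis) in ÅL, UP, SA and ÖL (colours) for each of the 150 genes, ordered by the smallest of the 4 differences (x axis, black line). The line falls from 1.41 to 0.41, and UP holds the smallest value of 80 genes.

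The 150 genes were drawn to a large extent from the most abundant transcripts of the thorax. Their median mean level was 6.72 on the log2 scale, against 4.07 over all 6134 genes. A mean level of 8 or more was found in 60 of the 150 genes (40.0%) but in 425 of the 6134 (6.93%), so that 14.1% of all abundant genes are among the 150. These 60 genes carried nearly all counts of the group: they held a median of 22.6% of the counts of ÅL males, where the 150 genes held 23.3%. Abundant genes as a class leaned towards males, with a median difference over all 425 of 0.24 in ÅL and 0.12 in UP, and 0.16 in SA and 0.18 in ÖL. In the 60 abundant genes of the group the medians were 0.85, 0.60, 1.05 and 0.97, and in the 90 less abundant ones 0.73, 0.72, 0.88 and 0.95. The abundant genes of the group had the larger median in ÅL and SA, the smaller in UP and about the same in ÖL.

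**Figure D3:**
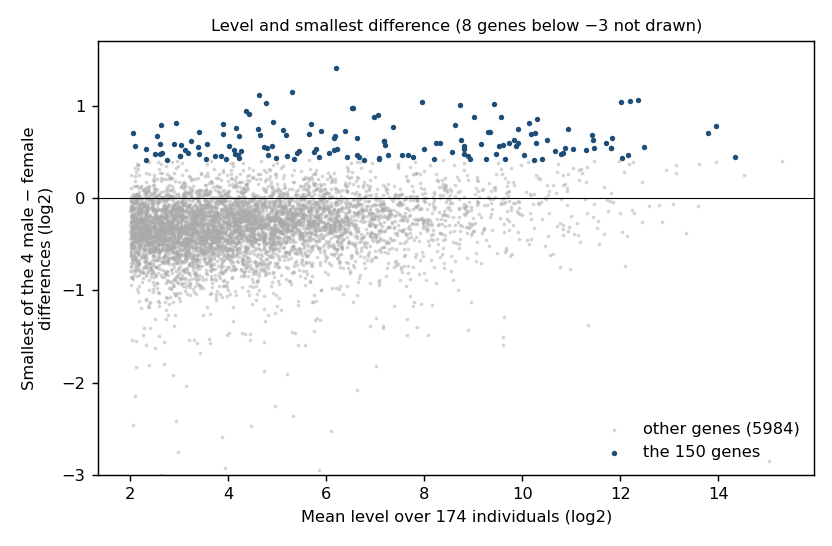
Smallest of the 4 male minus female differences (y axis, log2) against the mean level over the 174 individuals (x axis, log2) for the 6134 genes; blue points are the 150 genes and grey points the others, with 8 genes below -3 not drawn. The blue points lie above 0.41 by the rule of choice and cover the whole range of levels, from 2.04 to 14.34.

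MCINX015264 showed the largest consistent difference. In females its normalized count was 8.96 to 178 in ÅL (median 49.9), 17.4 to 70.6 in UP (57.4), 3.97 to 121 in SA (18.1) and 19.8 to 87.2 in ÖL (38.9). In males it was 27.4 to 322 in ÅL (median 220.0), 43.5 to 324 in UP (132), 32.3 to 204 in SA (93.7) and 44.7 to 551 in ÖL (189). The medians of males were several times those of females in ÅL, SA and ÖL and more than double in UP, though single individuals of the sexes overlapped. The log2 difference was 1.95 ± 0.25 (SE) in ÅL and 1.41 ± 0.31 in UP, and 2.22 ± 0.19 in SA and 2.12 ± 0.21 in ÖL. No description of this gene was found in the tables of the study.

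MCINX012059 was more even among populations. Its median normalized count in females was 22.3 in ÅL and 25.5 in UP, and 20.2 in SA and 21.4 in ÖL, and over all females it ranged from 9.71 to 70.0. In males the medians were 71.6, 65.0, 48.2 and 69.7, with a range of 8.89 to 148. Within UP the sexes did not overlap, with females up to 32.2 and males from 37.8. MCINX004280 likewise separated the sexes in UP, where females had 7.31 to 18.01 and males 20.3 to 55.8, and it was higher in both sexes in SA (medians of 19.6 in females and 47.9 in males) than in ÖL (10.7 and 34.2). MCINX001193, with log2 differences of 0.47 to 0.85, was the third of these genes. They were the only 3 of the 6134 genes (0.0489%) with the lowest UP male above the highest UP female, and no gene reached this in ÅL, SA or ÖL with all individuals included. UP had the fewest individuals, and full separation is harder to reach in larger groups. The 3 individuals placed with the other sex were also all in ÅL, SA and ÖL. Without them, MCINX015264 separated the sexes in SA (0.0163% of the genes) and MCINX012777 and MCINX006712 in ÖL (0.0326%). The 3 individuals had been picked by their levels in genes that include these, so this result is in part set by that choice.

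Of the 6 genes with the largest smallest difference, 3 were also among the most abundant. MCINX015004 encodes the gamma chain of ATP synthase (the gene model is a fragment), the subunit that forms the rotating stalk of the enzyme. Its median normalized count in females was 5296 in ÅL and 4263 in UP, and 2376 in SA and 2259 in ÖL, with single females from 713 to 13371. In males the medians were 12715, 7307, 5404 and 6096, and single males ranged from 2542 to 32842. Male medians were thus the higher in each population, with wide overlap, and ÅL females had about the level of SA males. The log2 differences were 1.28 ± 0.18 in ÅL and 1.06 ± 0.40 in UP, and 1.26 ± 0.15 in SA and 1.46 ± 0.28 in ÖL.

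MCINX005551 and MCINX011945, which have no description, were about as abundant as the ATP synthase chain. MCINX005551 had female medians of 1951 (UP) to 3249 (SA) normalized counts and male medians of 5563 (ÅL) to 9100 (SA). MCINX011945 had female medians of 1462 (SA) to 3413 (ÅL) and male medians of 4315 (UP) to 7778 (ÖL). The former was thus at its highest in SA and the latter at its lowest there in females. The remaining genes of the first 20 were MCINX006128, MCINX012930, MCINX004547, MCINX006129, MCINX012264, MCINX010950, MCINX005343, MCINX013217, MCINX012777, MCINX005629, MCINX009288, MCINX012867, MCINX013257 and MCINX010099, with smallest differences from 1.04 down to 0.82. Among them MCINX012867 had the narrowest range of differences, 0.88 to 0.98, and MCINX010099 the widest. The differences of MCINX010099 ran from 0.82 ± 1.08 in UP to 2.51 ± 0.68 in ÖL, and single individuals ranged from 0.645 to 446 normalized counts in females and from 1.45 to 1945 in males.

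**Figure D4:**
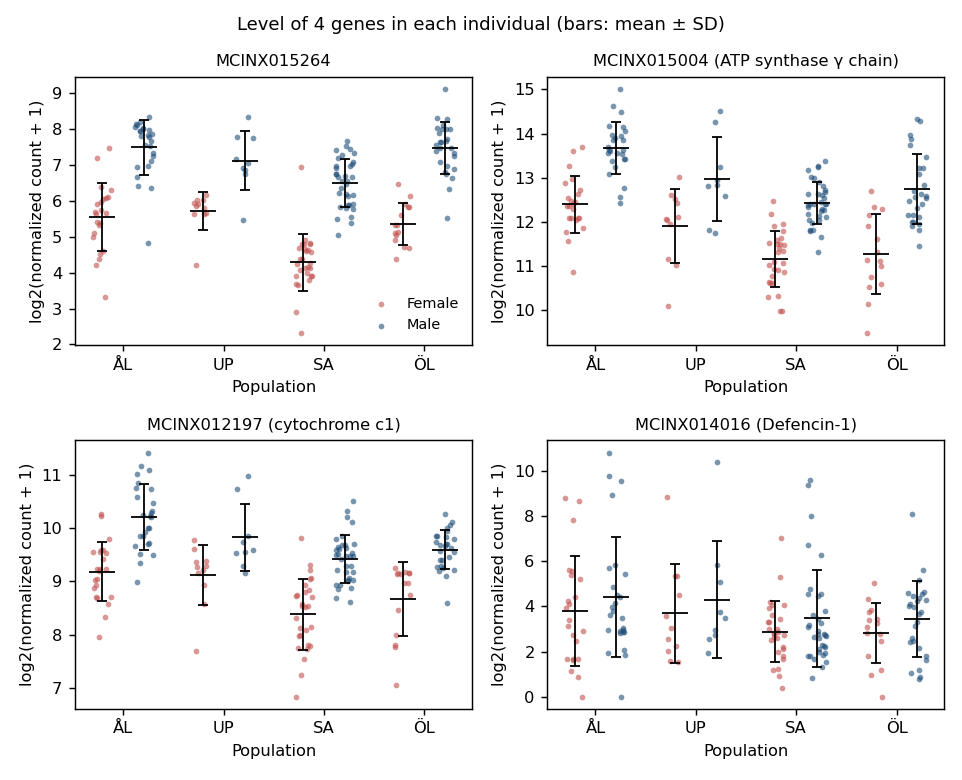
Log2(normalized count + 1) of MCINX015264, the ATP synthase gamma chain MCINX015004, cytochrome c1 MCINX012197 and Defencin-1 MCINX014016 (y axes) in females and males of the 4 populations (x axes); points are individuals and bars the mean ± SD of a group. Male means lie above female means in all 4 populations by 1.41 to 2.22, 1.06 to 1.46, 0.71 to 1.05 and 0.58 to 0.64, and for Defencin-1 the individuals of both sexes spread over nearly the same range.

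Descriptions were found for 13 of the 150 genes, in tables that mostly list genes differing between landscape types and name 1525 of the 16667 gene models; the other 137 genes are known here by identifier only. Of these 13, 4 belong to mitochondria. Besides the ATP synthase gamma chain these were cytochrome c1 (MCINX012197), the heme protein of respiratory complex III, a homolog of COX16 (MCINX007695), a factor for the assembly of cytochrome c oxidase, and the mitochondrial oxaloacetate transport protein (MCINX012429), a carrier of the inner membrane.

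Cytochrome c1 had median normalized counts of 599, 621, 367 and 503 in females of ÅL, UP, SA and ÖL, and 1196, 771, 711 and 815 in males. Single females ranged from 113 to 1239 and single males from 384 to 2756, so that the sexes overlapped. The log2 difference was 1.03 ± 0.17 in ÅL and 0.71 ± 0.27 in UP, and 1.05 ± 0.15 in SA and 0.93 ± 0.19 in ÖL. COX16 was of middling abundance, with female medians of 66.8 (UP) to 93.4 (ÖL) and male medians of 107 (UP) to 151 (ÖL) and differences of 0.45 (ÅL) to 0.73 (UP). The oxaloacetate carrier was rare, with female medians of 6.46 (ÖL) to 11.4 (SA) and male medians of 15.1 (UP) to 32.8 (SA), but its differences, 0.81 to 1.45, were among the larger ones.

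When all described genes with a mitochondrial or respiratory chain name were taken, a list chosen after values had been seen, 33 were at the required level. In all 4 populations 14 of these had a higher mean in males and 5 a higher mean in females. Over the 6134 genes the shares were 14.3% and 24.7%. The 14 include the 4 mitochondrial genes described above, which had been chosen for a male excess in every population. The count is thus in part set by that choice and is no test of an excess over all genes. The median of the mean differences in the list was 0.14. The male excess was not general in this list. The mitochondrial 28S ribosomal protein S2 (MCINX012498) was lower in males throughout (-0.78 to -0.08). NADH dehydrogenase 1 alpha subcomplex subunit 6 (MCINX000594) was higher in males in ÅL, SA and ÖL (0.42, 1.20 and 1.30) but lower in UP (-0.34). Coupling factor 6 of ATP synthase (MCINX008601) had differences of 0.73, 0.92 and 0.90 in the same 3 populations and 0.08 in UP.

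The other described genes have no common role. An O-linked N-acetylglucosamine transferase (MCINX007875), which attaches a sugar to serine and threonine of intracellular proteins, had differences of 0.75 (ÅL) to 1.54 (SA). The gene model named Foraging (MCINX002027) was the rarest of all 150, with a mean level of 2.04, no read in 9 of 77 females and 6 of 97 males, and differences of 0.71 (UP) to 1.39 (ÅL). In Drosophila foraging encodes a cGMP-dependent protein kinase known for its part in feeding movement. The receptor of ecdysis triggering hormone, subtype A (MCINX016517), through which the hormone starts the shedding of the old cuticle, had medians of 7.84 (UP) to 16.2 (SA) in females and 17.98 (UP) to 26.5 (SA) in males. A leucine aminopeptidase-like protein (MCINX009942), an enzyme that removes residues from the end of peptides, was abundant, with differences of 0.59 (UP) to 1.09 (SA). DnaJ-like protein 11 (MCINX004285), of a family of partners of the chaperone Hsp70, had differences of 0.50 to 0.63. A hypothetical protein (MCINX011353) had differences of 0.59 (ÅL) to 1.25 (SA).

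Akr1c13 (MCINX002639), an aldo-keto reductase, Defencin-1 (MCINX014016), named as a member of the antimicrobial defensin peptides, and a sugar transporter-like protein of the major facilitator superfamily (MCINX006898) were the 3 described genes with the largest landscape differences. Akr1c13 had differences between the sexes of 0.67 (SA) to 1.24 (UP). In the other 2 genes the ranges of the sexes overlapped widely. Defencin-1 ranged from 0 to 457 normalized counts in females and from 0 to 1807 in males, with medians of 6.995 and 8.51. Its differences, 0.58 to 0.64, were smaller than their standard errors in ÅL and UP and little larger in SA and ÖL (0.64 ± 0.73 in ÅL and 0.60 ± 1.09 in UP, and 0.58 ± 0.45 in SA and 0.63 ± 0.47 in ÖL). The sugar transporter had a difference of 0.49 ± 0.74 in ÅL, where the median of females, 27.7, was above that of males, 12.4.

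The lists of genes chosen by words in the descriptions held few of the 150 genes. None of the 9 cuticle genes, 3 cytochrome P450 genes, 3 sugar transferases, 4 odorant or pheromone binding genes, 8 muscle genes or 4 sperm and cilia genes at the required level was among them. Of 18 proteases 1 was, the leucine aminopeptidase, and of 5 hormone genes 1, the ecdysis triggering hormone receptor. Higher in males in all populations by any amount were 0 cuticle genes, 0 cytochrome P450 genes, 1 sugar transferase, 1 odorant or pheromone binding gene, 1 muscle gene, 0 sperm and cilia genes, 4 proteases and 2 hormone genes, against 14.3% of all genes. The words also took in genes of other kinds. The muscle gene counted here was named myosin-Ie, the odorant gene was a receptor, and the list of proteases included protease inhibitors. The sugar transferase, MCINX005524, was also 1 of the 2 hormone genes. The median of the mean differences lay between -0.21 (cytochrome P450) and 0.24 (sugar transferases and hormone genes). The last 2 lists share the ecdysteroid UDP-glucosyltransferases MCINX005524 and MCINX008074, so their values are not separate. No described gene carried a name of the sex determination pathway.

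In the numbering of gene models, 13 of the 150 genes stood next to another one. The pair MCINX006128 and MCINX006129 had similar levels (7.95 and 8.73) and varied together among individuals of a group (r = 0.80), and MCINX009361 and MCINX009362 less so (r = 0.52). In the other 5 pairs r was -0.18 to 0.45. Whether neighbours are parts of one gene, near-identical copies that share reads or separate genes cannot be told apart from the counts.

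Individuals of the same sex and population differed in these genes about as much as in others. The median within-group SD was 0.54 (UP females) to 0.76 (ÅL males) on the log2 scale over the 150 genes and 0.51 to 0.79 over all 6134. It was lowest in MCINX003481, with a mean within-group SD of 0.31, and highest in MCINX010099 (2.18), Defencin-1 (2.06) and MCINX006898 (1.85).

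The abundant genes of the group varied together from one individual to the next. Over the 174 individuals, the correlation of the deviations from the group means had a median of 0.37 over the 1770 pairs of the 60 abundant genes, against 0.08 over all pairs of the 425 abundant genes and 0.02 over all genes. Among the 90 less abundant ones the median was 0.08. Of the 1770 pairs, 25.2% had r above 0.5, against 5.30% of the pairs of all abundant genes. The closest pairs were MCINX001600 with MCINX003639 (r = 0.89) and MCINX012975 with MCINX002147 (r = 0.89), and cytochrome c1 had an r of 0.82 with MCINX001600. The genes of an individual share a library, its depth and its scaling, and genes chosen for 1 difference between groups share what sets individuals along it, so these values are a description. Without the 3 individuals the median over the abundant pairs was 0.34.

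The comparisons of populations asked whether the same genes also differed between landscapes. The fragmented type is represented only by ÅL and UP, which the study found most alike in allele frequencies, and the continuous type only by SA and ÖL. The test took individuals as replicates, so its FDR does not cover the spread among populations of a type. An effect of landscape type cannot be told apart here from differences between single populations. Averaged over the sexes, 75 of the 150 genes (50%) were expressed at a higher level in the fragmented populations (edgeR quasi-likelihood test, FDR<0.05), and 15 (10%) at a lower level. Of all 8976 genes tested, 20.8% were higher and 18.1% lower, but these include genes below the mean level required of the 150. The median log2 fold change of the 150 genes was 0.25, against 0.01 over all tested. The difference lay mainly in the abundant genes: 46 of 60 were higher and 3 lower, with a median of 0.36, where 41.6% of the 425 abundant genes were higher and 15.8% lower. Of the 90 less abundant genes 29 (32.2%) were higher and 12 (13.3%) lower, without a comparison with other genes of similar level. In the balanced set of 15 individuals per population, 40 genes were higher and 13 lower, against 11.8% and 10.3% of the genes then tested. Without a sex term in the model, the same individuals gave 25 and 17 of the 150 genes. These shares were close to those of all genes then tested, 14.7% and 11%. The excess of higher genes was thus small in that model.

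Separate populations showed where the levels differed. Compared with the mean of the other 3, SA had lower levels in 88 genes (58.7%) and higher levels in 23, against 26.6% and 26% of all genes tested. Of the 60 abundant genes, 46 were lower and 4 higher in SA, where 47.3% and 17.2% of all abundant genes were. ÅL had higher levels in 77 genes (51.3%) and lower in 13, against 20.9% and 18% of all genes. Of the 60 abundant genes 47 were higher and 2 lower, against 51.3% and 12.2% of all abundant genes. UP and ÖL differed in few of the 150 genes, in shares near or below those of all genes tested. In UP 13 were higher and 3 lower, against 7.11% and 3.57% of all genes, and in ÖL 14 and 8, against 8.70% and 8.68%. The 4 comparisons use the same individuals and are not independent. The median log2 fold change of the 150 genes was 0.31 in ÅL and 0.00 in UP, and -0.38 in SA and 0.03 in ÖL. ÅL and SA thus departed in opposite directions, while the medians of UP and ÖL were near 0. The median sum of normalized counts per library was lowest in SA in both sexes. In females it was 773192 in SA and 930208 to 987330 elsewhere. In males it was 948194 in SA and 974146 to 1155140 elsewhere, highest in ÅL. The part of this sum in the differences between populations was not tested. Any difference among the populations was found in 123 of the 150 genes (82.0%), against 66.9% of all genes tested, which include genes of lower level. In the balanced set, 49 genes were lower in SA and 47 higher in ÅL, where 14.1% and 15.1% of the genes tested were.

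Each sex showed SA most often lowest and ÅL most often highest. In males, SA had the lowest mean of the 4 populations in 86 of the 150 genes (57.3%), against 32.8% of the 6134 genes. Of the 425 abundant genes the share was 44.7%. ÅL males had the highest mean in 69 genes (46.0%), against 22.5% and 49.2%, so that this share was below that of abundant genes. In females SA was the lowest in 94 (62.7%), against 32.5% of the 6134 genes and 50.4% of the abundant ones. ÅL females were the highest in 64 (42.7%), against 19.7% and 33.4%. The median level of the abundant genes was 10.76 in ÅL males, 10.52 in UP, 10.19 in SA and 10.75 in ÖL, and 9.90, 9.90, 9.04 and 9.56 in females. ÖL males had thus about the level of ÅL males, while ÖL females were lower than the females of ÅL and UP.

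**Figure D5:**
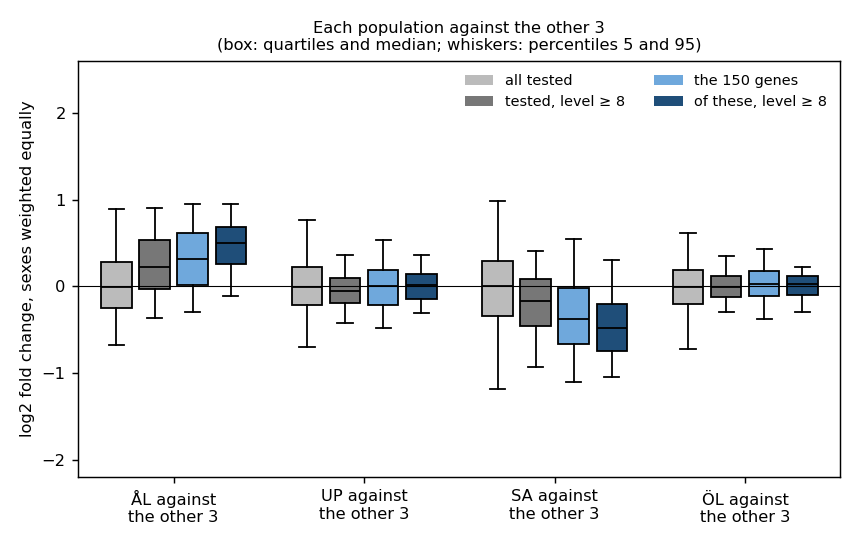
Log2 fold change of each population against the mean of the other 3, both sexes weighted equally (y axis), for all 8976 genes tested, the 425 of these with a mean log2 level of at least 8, the 150 genes and the 60 abundant ones among them (colours); boxes give the median and quartiles and whiskers percentiles 5 and 95. The medians of the 150 genes are 0.31 in ÅL and 0.00 in UP, and -0.38 in SA and 0.03 in ÖL.

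Of the 4 mitochondrial genes, 2 followed this order. The ATP synthase gamma chain MCINX015004 was higher in the fragmented populations by 0.83 ± 0.11 (SE; FDR = 4.2e-10), higher in ÅL than elsewhere by 0.90 ± 0.12 (FDR = 1.0e-10) and lower in SA (-0.77 ± 0.11, FDR = 2.9e-09). Cytochrome c1 MCINX012197 was higher in the fragmented populations by 0.57 ± 0.09 (FDR = 5.2e-08), again with a higher level in ÅL (0.56) and a lower one in SA (-0.51). COX16 and the oxaloacetate carrier had the opposite sign: MCINX007695 was lower in the fragmented populations (-0.39 ± 0.10, FDR = 0.0013), and so was MCINX012429 (-0.39 ± 0.13, FDR = 0.011), with its highest level in SA (0.74 ± 0.12, FDR = 5.9e-08). A male excess in every population therefore did not go with one direction between populations.

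The largest landscape difference was in the sugar transporter, a gene of low and variable level. The sugar transporter MCINX006898 had median normalized counts of 27.7 in ÅL females and 17.3 in UP females, but 1.40 in SA females and 3.33 in ÖL females. In males the medians were 12.4, 19.7, 4.22 and 7.30. Its log2 fold change was 2.59 ± 0.33 (FDR = 3.5e-11), with 2.36 ± 0.33 in ÅL and -2.29 ± 0.36 in SA against the other populations. Some individuals of SA had no read of it, and others of either landscape exceeded 100 normalized counts.

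Defencin-1 MCINX014016 had a log2 fold change of 2.26 ± 0.40 (FDR = 1.2e-06), although the medians of the groups, 5.76 (SA males) to 12.6 (ÖL males), did not follow landscape type. The groups differed more in their highest individuals, which reached 453 and 1807 in ÅL females and males, 457 and 1336 in UP, 130 and 774 in SA, and 31.4 and 275 in ÖL. The difference in ÖL was -2.15 ± 0.53 (FDR = 0.0015) and that in UP 1.43 ± 0.51 (FDR = 0.049), and both lost significance in the balanced set (FDR = 0.22 and 0.18).

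Akr1c13 MCINX002639 had medians of 4.85 and 13.5 in ÅL females and males, 9.65 and 18.6 in UP, 1.31 and 2.48 in SA and 5.03 and 8.10 in ÖL. It was higher in the fragmented populations by 1.61 ± 0.21 (FDR = 1.1e-10), in UP by 1.495 ± 0.26 (FDR = 7.7e-06) and lower in SA (-2.02 ± 0.24, FDR = 1.5e-13). MCINX012777 had medians of 38.3 in SA females and 113 in SA males, against 102 to 179 in females and 318 to 347 in males of the other populations. Its landscape change was 1.05 ± 0.16 (FDR = 1.0e-08), and it was lower in SA (-1.56 ± 0.17, FDR = 1.1e-15). In the balanced set without a sex term its landscape change was 0.59 and no longer significant (FDR = 0.11). MCINX002861 completed the 5 largest increases, at 1.10 ± 0.30 (FDR = 0.0019). Beyond these, MCINX001837 was higher in ÅL by 1.20 ± 0.16 (FDR = 2.0e-10) and MCINX015245 in UP by 0.65 ± 0.16 (FDR = 0.0018). The latter lost significance in the balanced set (FDR = 0.058).

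The 5 genes with the largest changes towards continuous landscapes were MCINX011680 (-1.12 ± 0.19, FDR = 4.5e-07), MCINX004829 (-0.87 ± 0.22, FDR = 0.00087), MCINX013426 (-0.62 ± 0.16, FDR = 0.0011), MCINX013952 (-0.53 ± 0.15, FDR = 0.0023) and MCINX015650 (-0.48 ± 0.15, FDR = 0.0051). MCINX013426 lost significance in the balanced set (-0.56, FDR = 0.082). MCINX011680 was highest in SA, with medians of 2.66 in females and 8.25 in males, against 0.692 and 3.79 in ÅL. MCINX004829 stood out in ÖL instead. Its medians there were 19.5 in females and 48.7 in males, against 10.2 to 13.4 and 24.6 to 27.4 in the other populations, and it was higher in ÖL by 1.96 ± 0.23 (FDR = 1.6e-12). In ÖL its level varied widely, from 4.51 to 297 in females and 4.64 to 496 in males.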

How the data were processed

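The authors sequenced strand-specific libraries anchored at the poly(A) tail and, per the labels, used CASAVA 1.7, TopHat2 2.0.5 and edgeR. Reads were counted within gene models by the authors, and the deposited raw counts are whole numbers without normalization. The deposited normalized counts (unit: signal) were made by the authors with edgeR; in each library they are a fixed multiple of its raw counts, set by the total and the TMM factor. Reads were mapped to scaffolds of the Glanville fritillary genome with MAKER gene models, and no named assembly build is given.

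Sex and population were taken from the labels. The genes and lists were chosen with earlier results of these data known. Normalized counts were used for levels, with a pseudocount of 1. Raw counts of the 174 individuals were tested with edgeR 4.0.16 in R 4.3.3 (quasi-likelihood F-test, TMM, filterByExpr with a minimum count of 10, FDR<0.05 over 8976 genes). The model had 8 means, 1 for each sex in each population, and both sexes had equal weight. The study used 1 mean per population in a balanced set of 60, which was an alternative here together with RLE size factors, no filter and DESeq2 1.42.0. The omission of 3 individuals was added after seeing the data. In simulated counts for the landscape contrast, 193 of 200 changed genes were recovered (93 of 100 at a log2 change of 1, 100 of 100 at 2) with 7 false calls among 8976 genes. In the data, 1870 genes were called higher and 1623 lower in the fragmented populations. False calls with that many changed genes, or from differences between populations of a landscape type, were not tested.

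Genes named in the text are the first 20, those with a description, the 5 with the largest landscape change in each direction, the 3 with the largest change in each population, and the 3 on either side of the last place. MCINX001193, MCINX006712, MCINX000594, MCINX008601, the neighbouring and closely correlated genes and the mitochondrial list were chosen after their values were seen. Descriptions come from the tables of the study. No pair of individuals within a population was alike within sampling noise (smallest chi-square per degree of freedom 8.71 among 4180 pairs). Python 3.11.15 and matplotlib 3.10.9 were used.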

Additional observations from a re-analysis of the deposited data

Results flagged for a closer look

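UP males are the only group of 4 to 10 individuals, and the lowest and highest of them were set against the others for 33 measures, the share of counts and 32 genes. Chance alone separates about 1 in 20 such groups. In MCINX012059 the lowest UP male had a log2 level of 5.28, apart from the next at 5.97. In Defencin-1 (MCINX014016) the highest UP male had a log2 level of 10.38, apart from the next at 5.84.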

How the results depend on the processing

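No paired analysis was possible because the individuals carry no shared replicate numbers. Of the 150 genes, 115 to 147 were chosen again under 7 other forms of the rule and 146 without the 3 individuals. Among 32 named genes, the smallest difference between the sexes changed sign for Defencin-1 with medians (-0.062) and in the balanced set (-0.16), and for MCINX006898 with medians (-1.21). In the balanced set, which has 60 of the 174 individuals, fewer genes were called. In fragmented populations 40 of the 150 genes were higher and 13 lower (11.8% and 10.3% of all genes tested). Without a sex term the same 60 individuals gave 25 and 17, close to the shares of all genes (14.7% and 11%). In ÅL 47 were higher (15.1%), in UP 4 were higher (5.19%), in SA 12 were higher and 49 lower (13.1% and 14.1%), and in ÖL 3 were higher and 1 lower (2.69% and 1.22%). Of 108 values of named log2 fold changes under the alternatives, 8 lost significance and none changed sign. They include Defencin-1 in UP with RLE size factors (FDR = 0.059) and without the 3 individuals (FDR = 0.057). Depth limits the rarest genes: no read of MCINX002027 was found in 9 females and 6 males.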
